A study of Mus musculus with 6 samples.

Results

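The 9 CC chemokine genes Ccl2, Ccl5, Ccl7, Ccl8, Ccl9, Ccl11, Ccl17, Ccl20 and Ccl25 were followed in RNA-sequencing counts from a mouse colonic cell line. They were found by gene symbol, 1 gene each among the 54532 genes that every library lists. The symbols were chosen by family and on measured values of the same libraries, namely their counts and their fold changes between the groups, so those values are given as a description. The cells were YAMC, a conditionally immortalised wild-type line labelled as young adult mouse colonic epithelium. Treated cells (3 libraries) were kept for 6 h with 20 µg/ml of 2'-fucosyllactose (2'-FL), a fucose-bearing milk sugar, and the control group of 3 libraries was not treated. The study asked whether 2'-FL acts directly on intestinal epithelial cells in a way that bears on colitis. All 6 libraries share the line, a temperature-sensitive SV40 large T antigen driven by the interferon-gamma-inducible H-2Kb promoter, growth at 33 °C and interferon-gamma in the medium. Control titles give no time. The labels do not say whether the replicates of a group were grown separately; the p-values then reflect only how these samples vary, which may be technical.

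CC chemokines are small secreted proteins named for a pair of adjacent cysteines near the amino terminus. They are held on heparan sulfate at cell surfaces and in matrix, and they draw leukocytes through G protein-coupled receptors of the Ccr family. Epithelial and stromal cells of the gut raise several of them when interferons or the NF-kB pathway are active, so the interferon-gamma that all 6 libraries share is part of the setting in which the levels below were measured. Ccl2 and Ccl7 chiefly recruit monocytes, Ccl5 recruits T cells and monocytes, and Ccl11 recruits eosinophils. Ccl9 is a ligand of Ccr1, Ccl20 of Ccr6, Ccl17 of Ccr4 and Ccl25 of Ccr9.

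The libraries held between 19978583 and 25251187 counts. On the first principal component, with 28.01% of the variance, 2'-FL replicate 2 lay farthest out at -34.1, against -0.52 to 13.9 for the other 5 libraries, and on the second, with 21.66%, control replicate 1 lay farthest out at -28.5. Fold changes of the chemokines are therefore also given without these libraries. Of 12 epithelial markers, Krt8, Krt18 and Krt19 averaged 308, 271 and 393 CPM (counts scaled to a common library total). Cdh1 averaged 0.651 CPM, Epcam 0.337 CPM and Vil1 0.0703 CPM, and Cdx1 and Cdx2 had no count. The fibroblast collagens Col1a1 and Col3a1 averaged 3555 and 2695 CPM. Of 10 fibroblast markers 8 averaged at least 1 CPM, and Lum had no count. Apart from the 3 abundant keratins, the epithelial markers were thus at or near 0, all under 1 CPM. The cells are called YAMC here. Some genes that define leukocytes were at or near 0: Ptprc had 4 counts in all 6 libraries together, Adgre1 had 1, Itgam had 1, Tyrobp and Itgax had none, and 7 of 10 T and NK cell markers had none, whereas Cd68 averaged 23.8 CPM, Zbtb46 averaged 15.5 CPM, Cd14 averaged 10.6 CPM, Batf3 averaged 2.68 CPM and Csf1r averaged 1.05 CPM.

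Upstream sequence is shown for the tested members that the RefSeq promoter table of GRCm38.p6 holds, Ccl20, Ccl9 and Ccl25, since they differ widely in level and include the one tested member with a higher mean after 2'-FL. Each run covers the 250 bases before an annotated start site, 5′ to 3′ on the gene's strand. Ccl20 lies at chr1:83116516-83116765 on the plus strand, Ccl9 at chr11:83578637-83578886 on the minus strand, and the inner of the 2 Ccl25 start sites at chr8:4349338-4349587 on the plus strand. Capitals mark matches to GGG, any 5 bases and CC on either strand (NF-kB), TGANTCA (AP-1) or TATAAA on the gene's strand.
Ccl20: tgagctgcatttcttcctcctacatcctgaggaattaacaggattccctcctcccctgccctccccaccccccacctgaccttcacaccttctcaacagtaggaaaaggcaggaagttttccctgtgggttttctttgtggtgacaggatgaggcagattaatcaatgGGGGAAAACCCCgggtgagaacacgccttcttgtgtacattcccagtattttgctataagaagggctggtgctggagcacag
Ccl9: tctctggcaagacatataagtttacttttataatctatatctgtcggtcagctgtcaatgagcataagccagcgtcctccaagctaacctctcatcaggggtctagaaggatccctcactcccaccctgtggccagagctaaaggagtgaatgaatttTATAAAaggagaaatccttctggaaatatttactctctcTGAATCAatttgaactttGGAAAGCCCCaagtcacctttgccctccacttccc
Ccl25, inner start: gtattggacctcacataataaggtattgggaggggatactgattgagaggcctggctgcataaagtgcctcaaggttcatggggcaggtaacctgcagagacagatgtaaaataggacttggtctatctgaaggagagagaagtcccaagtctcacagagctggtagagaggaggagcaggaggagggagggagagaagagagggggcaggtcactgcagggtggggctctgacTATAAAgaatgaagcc
In Ccl20 the capitals are 1 run in which several overlapping matches to the NF-kB letters begin between 82 and 80 bases before the start. In Ccl9 the capitals are, in order, a TATAAA that begins 92 bases before the start, an AP-1 match at 53 bases and an NF-kB match at 35 bases. The inner Ccl25 window has a TATAAA that begins 16 bases before the start. These letters are common: over the 32851 RefSeq windows of 300 bases, 250 before and 50 after a start, 50.8% held an NF-kB match, 7.81% an AP-1 match and 8.32% a TATAAA. The letters GAAA, any 2 bases and GAAA (ISRE core, either strand), found in 3.44% of windows, were in none of the windows of Ccl8, Ccl9, Ccl17, Ccl20 and Ccl25, and TTCNNNGAA (GAS, the same on both strands), found in 8.3%, was only in that of Ccl17 among them. The matches are descriptions of the letters and were set against no binding data. Ccl2, Ccl5, Ccl7 and Ccl11 are named only.

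Per kilobase of annotated exon, the members spanned a wide range of levels in YAMC cells. Ccl2 averaged 204 CPM per kilobase over the 6 libraries (SD 30.5, range 157 to 239), Ccl7 averaged 113 (SD 22.2, range 82.9 to 136) and Ccl5 averaged 84.2 (SD 24.7, range 54.8 to 121). Ccl20 followed at 13.1 CPM per kilobase (SD 2.88, range 9.31 to 17.1). At the exon lengths in the files, the other 5 members lay an order of magnitude or more below Ccl20. Ccl25 averaged 1.25 CPM per kilobase (SD 0.162), Ccl17 averaged 0.833 (SD 0.430), Ccl9 averaged 0.550 (SD 0.0792), Ccl8 averaged 0.180 and Ccl11 averaged 0.0557. The ranges of neighbours in this order did not overlap between Ccl2 and Ccl7, between Ccl5 and Ccl20, between Ccl20 and Ccl25, or between Ccl9 and Ccl8. The ranges of Ccl7 and Ccl5 overlapped, although Ccl7 was above Ccl5 in 6 of 6 libraries. Ccl25 (range 1.05 to 1.52) and Ccl9 (range 0.488 to 0.680) did not overlap, but the range of Ccl17 overlapped both, with Ccl25 above Ccl17 and Ccl17 above Ccl9 in 5 of 6 libraries each. Ccl8 and Ccl11 also overlapped.

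**Figure D1:**
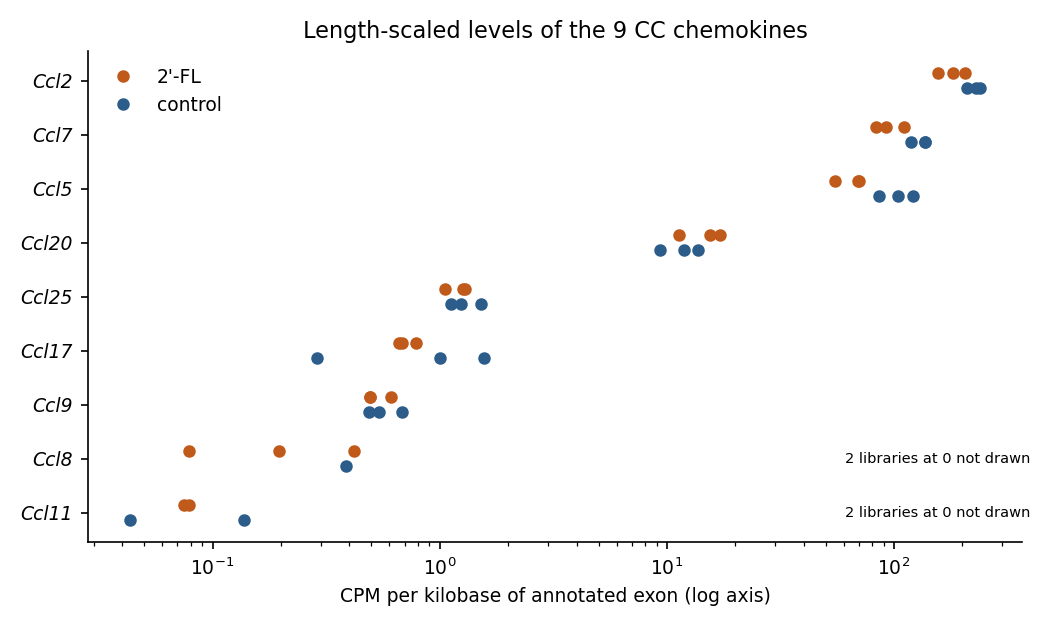
Length-scaled level of each of the 9 CC chemokines in every library, as CPM per kilobase of annotated exon on a log axis; each point is 1 library, orange with 2'-FL and blue control. Ccl2, Ccl7 and Ccl5 lie between 54.8 and 239, Ccl20 between 9.31 and 17.1, and the other 5 members below 1.6; libraries at 0 (2 for Ccl8 and 2 for Ccl11) cannot be drawn on this axis.

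The length in the files matters for Ccl25. Its 7445 exon bases, on chromosome 8 from 4325210 to 4360020, are a union over 10 annotated transcripts, of which 4 code for protein, and they include 2 retained-intron models. Divided instead by the exon bases of each of the 4 coding transcripts, 1058, 823, 867 and 395, the same mean level gives 8.79, 11.3, 10.7 and 23.5 CPM per kilobase, from just under the lowest Ccl20 library to above the highest. The place of Ccl25 below Ccl20 thus rests on the length used. The start sites lie 24378 bases apart, and counts per gene cannot tell which one was used. Of the exon bases, 204 (2.74%) are shared with Elavl1, a gene on the opposite strand with 14801 counts, and no source used here says whether the counting was stranded. The outer start has 52 CpG pairs and 74.0% GC in its window, against 1 CpG and 51.7% at the inner start, with a median of 7 CpG and 52.7% GC over all RefSeq windows.

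As shares of their summed length-scaled level, Ccl2, Ccl7 and Ccl5 together made up between 93.7% and 97.7% in each library. Averaged over the 6 libraries, Ccl2 took 49.1%, Ccl7 took 27.0%, Ccl5 took 19.9% and Ccl20 took 3.33%. Ccl17, Ccl9, Ccl8 and Ccl11 took between 0.0133% and 0.204%. Ccl25 took 0.305% at the length in the files, and 2.18% of the summed counts where no member was divided by its length. These shares do not depend on the scaling between libraries. The Ccl2 share was 50.5% with 2'-FL (range 49.9 to 51.4) and 47.6% in controls (range 46.6 to 49.2), so the groups did not overlap. That separation rests on the division by length: as shares of the summed counts, the Ccl2 values of the groups overlapped. The Ccl5 share was 18.0% with 2'-FL (range 17.4 to 19.2) and 21.8% in controls (range 18.3 to 23.8), with overlap. The Ccl20 share was 4.19% with 2'-FL (range 2.82 to 5.46) and 2.48% in controls (range 1.83 to 3.04), also with overlap.

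Of the 9 members, 6 passed the filter on low counts and were tested between 2'-FL and control: Ccl2, Ccl5, Ccl7, Ccl9, Ccl20 and Ccl25. None passed an adjusted p of 0.05 by edgeR's quasi-likelihood test, and none of the 14129 genes tested did (0%). At an unadjusted p under 0.05, edgeR gave 3 of the 6, all lower with 2'-FL, where 4.54% of all genes were lower at that p and 7.9% lay past it in either direction. The same 3, Ccl2, Ccl5 and Ccl7, had no overlap between groups, each 2'-FL library lying below each control library, as did 6.31% of all genes, and this held under each scaling tried. No member had all 2'-FL libraries above all controls, where 6.74% of all genes did. The median log2 fold change was -0.21 over the 6 tested members and -0.0056 over all genes tested. DESeq2, an alternative test, called Ccl5 and Ccl7, among 37 of the 11389 genes to which it gave an adjusted p (0.325%; 0.228% lower). Since the contrast was known when the members were listed, these counts are read no further.

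**Figure D2:**
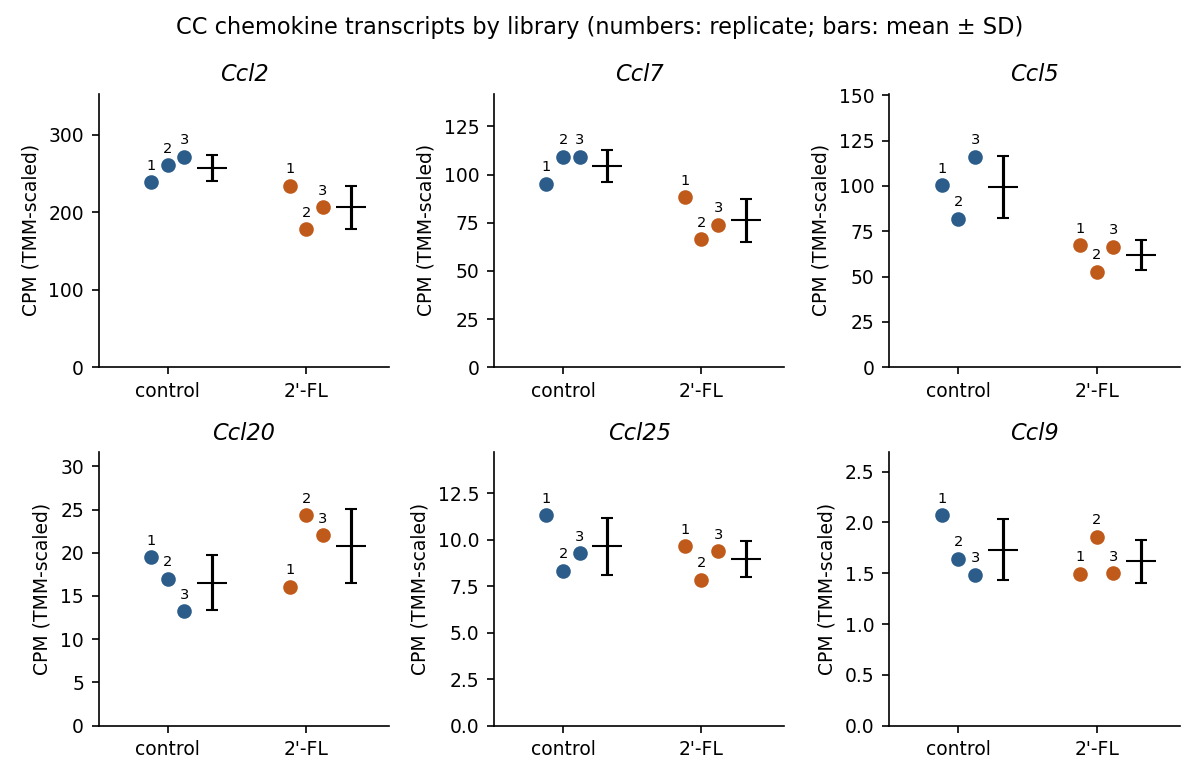
TMM-scaled CPM of the 6 tested CC chemokines, 1 panel per gene with its own axis from 0; each numbered point is a library by its replicate number and the black bar is the mean ± SD of 3 libraries. The 2'-FL libraries lie below all control libraries for Ccl2, Ccl7 and Ccl5 and overlap them for Ccl20, Ccl25 and Ccl9.

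Ccl2, the main chemoattractant of monocytes, was the most abundant member. It lies on chromosome 11 from 82035571 to 82037453 on the plus strand, with 1138 exon bases and 29810 counts in all. Ccl2 stood at 239, 261 and 272 CPM in control replicates 1 to 3, and at 234, 178 and 206 CPM in 2'-FL replicates 1 to 3. The highest 2'-FL library lay just under the lowest control library, and 2'-FL replicate 2 was lowest. The mean was 257 ± 16.7 CPM in controls against 206 ± 28.0 CPM with 2'-FL (SD, n = 3 each), or 80.2% of control. The log2 fold change of Ccl2 was -0.32 ± 0.09 (SE; edgeR adjusted p = 0.372). With 2'-FL replicate 2 left out it was -0.22, with control replicate 1 left out as well it was -0.27, and over all alternatives the adjusted p ran from 0.00577, without the filter on low counts, to 0.930. Without that filter edgeR called 158 genes at infinite prior degrees of freedom, which sets aside each gene's own variability. Adjusted p from that fit, here and below, carry this limit.

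Ccl7, also a monocyte attractant, is the neighbour of Ccl2, starting 8258 bases beyond its end (82045712 to 82047525, plus strand, 801 exon bases, 11611 counts). Ccl7 stood at 95.1, 109 and 109 CPM in control replicates 1 to 3, and at 88.2, 66.4 and 74.0 CPM in 2'-FL replicates 1 to 3. The order of the 2'-FL libraries was that of Ccl2. With 105 ± 8.17 CPM as the control mean and 76.2 ± 11.1 CPM with treatment (SD, n = 3 each), Ccl7 was at 72.9% of control. The log2 fold change of Ccl7 was -0.46 ± 0.09 (SE; edgeR adjusted p = 0.197). With 2'-FL replicate 2 left out it was -0.36, and with control replicate 1 left out as well -0.43. The adjusted p of Ccl7 fell under 0.05 with edgeR without 2'-FL replicate 1 (-0.57, adjusted p = 0.0238), with DESeq2 (-0.45, adjusted p = 0.00776) and without the filter (-0.45, adjusted p = 1.25e-05), and reached 0.643 in the alternative where it was highest.

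Ccl8 lies farther along the same cluster (82115185 to 82116799, plus strand, 511 exon bases) and was too low to be tested. Its raw counts were 0, 0 and 4 in control replicates 1 to 3 and 5, 1 and 2 in 2'-FL replicates 1 to 3. A count of 0 allows up to 3 counts, which is 0.150 CPM in control replicate 1 and 0.142 CPM in control replicate 2. A difference was thus not detectable at this depth.

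Ccl5, which attracts T cells and monocytes, had the largest fold change among the tested members. It lies on chromosome 11 from 83525778 to 83530518 on the minus strand, with 960 exon bases and 10287 counts. Ccl5 stood at 100.3, 82.0 and 116 CPM in control replicates 1 to 3, and at 67.2, 52.6 and 66.5 CPM in 2'-FL replicates 1 to 3. Control replicate 3 was highest and 2'-FL replicate 2 lowest, and the groups were separated by a wider margin than for Ccl2 or Ccl7. The mean was 99.5 ± 17.1 CPM in controls against 62.1 ± 8.27 CPM (SD, n = 3 each), or 62.4% of control. The log2 fold change of Ccl5 was -0.68 ± 0.12 (SE; edgeR adjusted p = 0.0914). Its size ran from -0.55 without control replicate 3 to -0.80 without control replicate 2, and it was -0.57 with 2'-FL replicate 2 left out, and also with control replicate 1 left out as well. The adjusted p of Ccl5 was under 0.05 in edgeR fits that left out 2'-FL replicate 1 (0.0411), control replicate 2 (0.0095) or the filter on low counts (2.44e-13), and with DESeq2 (6.63e-05). Of these, the fit without the filter called 158 genes at infinite prior degrees of freedom. The edgeR adjusted p of Ccl5 reached 0.560 when control replicate 3 was left out.

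Ccl11 and Ccl9 share chromosome 11 with the genes above. Ccl11, the eosinophil attractant (82057823 to 82062955, plus strand, 1082 exon bases), had raw counts of 0, 1 and 3 in controls and 2, 2 and 0 in 2'-FL replicates 1 to 3, and was not tested. Ccl9, a Ccr1 ligand (83572919 to 83578636, minus strand, 3045 exon bases, 217 counts), stood at 2.07, 1.64 and 1.49 CPM in control replicates 1 to 3 and at 1.49, 1.86 and 1.499 CPM in 2'-FL replicates 1 to 3, with overlapping groups. Its means were 1.73 ± 0.303 CPM and 1.62 ± 0.208 CPM (SD, n = 3 each), and its log2 fold change, -0.10 with an SE of 0.31 (edgeR adjusted p = 0.965), was 0.05 when control replicate 1 was left out.

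On chromosome 11 the members fall into a group of 4, Ccl2, Ccl7, Ccl11 and Ccl8, and a pair, Ccl5 and Ccl9, which begins 1408978 bases beyond Ccl8. Level did not follow position. In the group of 4, Ccl11 begins 10297 bases beyond the abundant Ccl7 and Ccl8 another 52229 bases on, and both were close to the count floor. In the pair, Ccl9 begins 42400 bases beyond Ccl5, and averaged 0.550 CPM per kilobase against 84.2 for Ccl5.

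Ccl20, the ligand of Ccr6 and a product of gut epithelium, was the only tested member with a higher mean in the 2'-FL libraries. It lies on chromosome 1 from 83116766 to 83119167 on the plus strand, with 1421 exon bases and 2434 counts. Ccl20 stood at 19.5, 17.0 and 13.2 CPM in control replicates 1 to 3 and at 16.1, 24.3 and 22.0 CPM in 2'-FL replicates 1 to 3. The groups overlapped through 2'-FL replicate 1, which lay below control replicates 1 and 2. The mean was 16.5 ± 3.13 CPM in controls against 20.8 ± 4.28 CPM (SD, n = 3 each), or 126% of control. The log2 fold change of Ccl20 was 0.33 ± 0.16 (SE; edgeR adjusted p = 0.639). It was 0.20 with either 2'-FL replicate 2 or control replicate 3 left out, and 0.33 with 2'-FL replicate 2 and control replicate 1 left out, and no alternative brought its adjusted p under 0.229.

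Ccl25, the Ccr9 ligand known for homing T cells to the small intestine, had 1197 counts. It stood at 11.3, 8.34 and 9.27 CPM in control replicates 1 to 3 and at 9.65, 7.83 and 9.39 CPM in 2'-FL replicates 1 to 3. The groups overlapped, with means of 9.64 ± 1.52 CPM and 8.96 ± 0.983 CPM (SD, n = 3 each). On the log2 scale Ccl25 differed by -0.11 ± 0.15 (SE; edgeR adjusted p = 0.898), which turned to 0.03 when control replicate 1 was left out and to 0.11 when 2'-FL replicate 2 was left out as well. Ccl17, the Ccr4 ligand (chromosome 8, 94810453 to 94812036, plus strand, 514 exon bases), did not reach the filter: its raw counts were 16, 11 and 3 in control replicates 1 to 3 and 8, 10 and 7 in 2'-FL replicates 1 to 3, so that the controls spread over a wider range than the 2'-FL libraries and enclosed them.

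**Figure D3:**
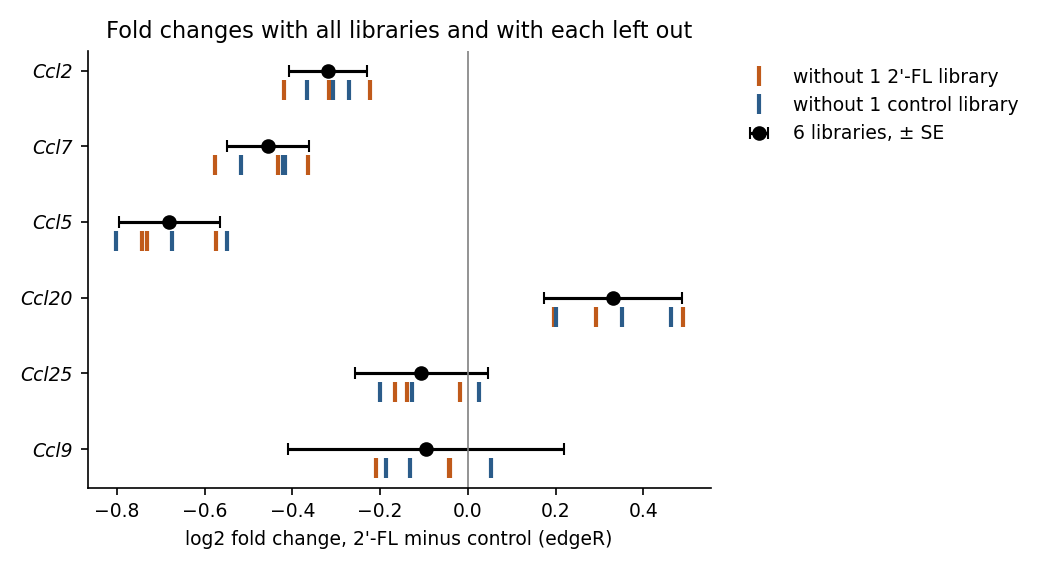
Log2 fold change of the 6 tested CC chemokines, 2'-FL minus control, by edgeR; black points with bars are the estimate from 6 libraries ± SE, and the ticks under each are the estimates with 1 library left out, orange for a 2'-FL library and blue for a control. Ccl5 ranges from -0.80 to -0.55 and Ccl20 from 0.20 to 0.49 without changing sign, whereas Ccl25 and Ccl9 cross 0.

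On the log2 scale around each gene's own mean, 2'-FL replicate 2 was the lowest library for Ccl2 (-0.36), Ccl7 (-0.42), Ccl5 (-0.57) and Ccl25 (-0.24), and the highest for Ccl20 (0.41). Control replicate 3 was the highest library for Ccl2 (0.24) and Ccl5 (0.57), and the lowest for Ccl20 (-0.47) and Ccl9 (-0.16). The likest pair was Ccl2 and Ccl7, whose centred values differed by a root mean square of 0.076 over the 6 libraries. Ccl5 differed from Ccl7 by 0.209, Ccl2 from Ccl25 by 0.213 and from Ccl5 by 0.232, and Ccl20 and Ccl5 differed most, by 0.633. Control replicate 2 was the highest library for Ccl7 (0.30) and the lowest control for Ccl5 (0.07). Within a library all genes share its depth and scaling, so the distances are descriptions.

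**Figure D4:**
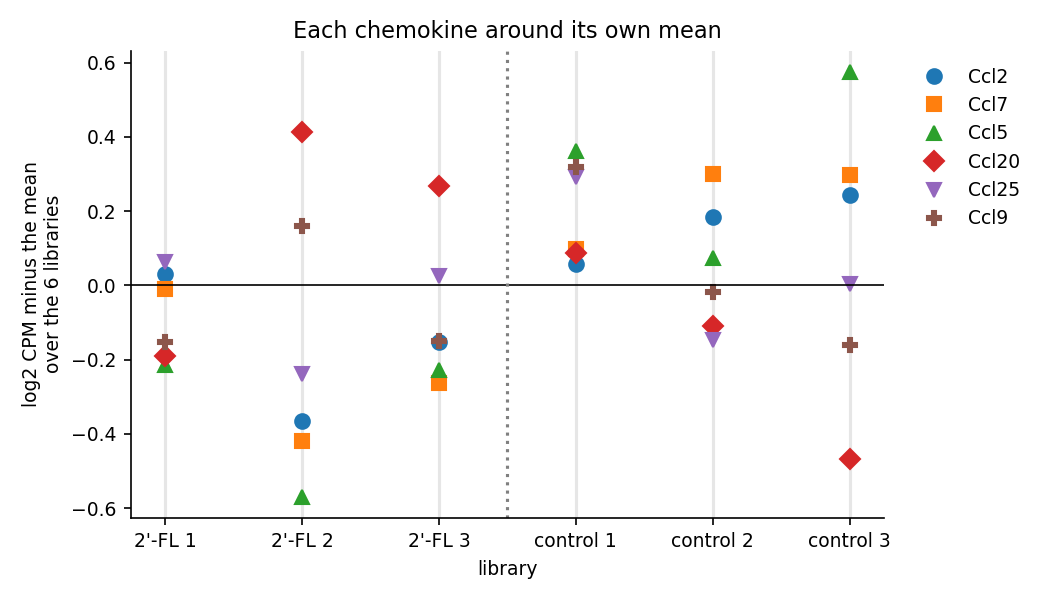
Log2 CPM of each tested CC chemokine minus its mean over the 6 libraries, for each library along the x axis; symbols and colours mark the gene and the dotted line parts 2'-FL from control. In 2'-FL replicate 2, Ccl20 lies at 0.41 while Ccl5 lies at -0.57, and in control replicate 3 the order is turned, with Ccl5 at 0.57 and Ccl20 at -0.47.

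Ratios taken within a library do not depend on scaling between libraries. For each 100 reads of Ccl2 there were 39.8, 41.9 and 40.2 reads of Ccl7 in control replicates 1 to 3 and 37.7, 37.3 and 35.9 in 2'-FL replicates 1 to 3. The groups did not overlap, and the whole range ran only from 35.9 to 41.9, although Ccl2 itself ranged from 178 to 272 CPM. Ratios were not taken over other pairs of genes, so this lack of overlap has no background to be read against. For each 100 reads of Ccl2 there were 42.0, 31.4 and 42.7 reads of Ccl5 in the controls and 28.7, 29.5 and 32.2 with 2'-FL, so that control replicate 2 fell among the 2'-FL libraries. Reads of Ccl20 per 100 of Ccl2 numbered 8.14, 6.50 and 4.87 in the controls and 6.85, 13.7 and 10.7 with 2'-FL, with 2'-FL replicate 1 inside the control range. Per 100 reads of Ccl7, those of Ccl5 ran from 75.0 to 106.4 in the controls and from 76.2 to 89.9 with 2'-FL, also with overlap.

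The genes whose library pattern was most like that of each abundant member were named by the root mean square distance between centred log2 CPM over the 6 libraries. For Ccl2 they were, of 6210 genes compared, Crebrf (0.03), Fbxl12 (0.045) and the lysosomal sterol carrier Npc2 (0.046). For Ccl7 they were, of 4666, the membrane protein gene Ms4a4d (0.008), the ETS-family factor Etv4 (0.058) and Zmynd15 (0.061). For Ccl5, of 3174, they were Olfr1372-ps1 (0.093), E030030I06Rik (0.107) and the interferon-induced antiviral gene Rsad2 (0.112). For Ccl20, of 4258, they were the sterol synthesis enzymes Nsdhl (0.055) and Msmo1 (0.073), and Rgma (0.077). With so few libraries and so many genes, close matches can be found for most patterns, and these are listed as likeness only.

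The other CC ligands were nearly silent. Of 15 further ligand symbols, Ccl3, Ccl19, Ccl21a, Ccl21b, Ccl21c, Ccl24, Ccl26 and Ccl27b had no count in any library, which over the 6 libraries allows up to 0.0231 CPM. Ccl27a alone was tested, at 4.71 ± 0.923 CPM in controls and 4.03 ± 0.447 CPM with 2'-FL (SD, n = 3 each; log2 fold change -0.23 ± 0.21, edgeR adjusted p = 0.829), and since the annotation holds further copies of it, its counts are uncertain. It was thus above Ccl9 in CPM without being one of the 9. Ccl6 had 30 counts in all 6 libraries together, Ccl28 had 9, Ccl4 had 6, Ccl22 had 5, Ccl12 had 2 and Ccl1 had 1.

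Transcripts of the receptors through which these ligands act were at or near 0 in the same cells. None of the 11 CC receptor genes was tested, and Ccr1, Ccr1l1, Ccr6 and Ccr8 had no count in any library. Ccr2, the receptor of Ccl2 and Ccl7, had 3 counts over the 6 libraries and Ccr3 had 7, and the most abundant receptor, Ccr10, averaged 0.185 CPM. Of 6 atypical receptors, which take up or bind chemokines without G protein signalling, 3 were tested and none passed. Ackr3 stood at 3.63 ± 0.572 CPM in controls and 2.74 ± 0.535 CPM with 2'-FL (log2 fold change -0.41 ± 0.25, edgeR adjusted p = 0.722). Ackr4, which takes up Ccl25 among others, had a log2 fold change of 0.37 ± 0.36 (adjusted p = 0.840), and Ccrl2 had -0.64 ± 0.41 (adjusted p = 0.742).

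Genes of the heparan sulfate that holds chemokines outside the cell, and genes that cut chemokines, gave no call. Of the heparan sulfate genes 22 of 22 averaged at least 1 CPM, and of those that cut chemokines 6 of 13 did. All 22 were tested, covering proteoglycans, their synthesis, and also Hpse, Sulf1 and Sulf2, which cut or desulfate the chains. The directions are thus not those of retention alone. Of the 22, 8 had a lower and 14 a higher mean with 2'-FL, and none passed. At an unadjusted edgeR p under 0.05 were 4, all higher, as were 3.36% of all genes in that direction. The median log2 fold change was 0.08 against -0.0056 over all genes. The matrix proteoglycan Hspg2 averaged 1895 CPM and the sulfatase Sulf2 averaged 566 CPM. The smallest p were those of Gpc4 (0.26 ± 0.08, edgeR adjusted p = 0.476) and Sdc1 (0.15 ± 0.06, adjusted p = 0.587), both surface proteoglycans. Of 13 chemokine-cleaving proteases 7 were tested, 5 lower and 2 higher with none past the threshold and a median of -0.05. The gelatinase Mmp2 averaged 434 CPM and the cathepsin Ctsl averaged 379 CPM, and the smallest p were those of the collagenase Mmp13 (-0.58 ± 0.24, adjusted p = 0.570, and 0.0046 without the filter on low counts) and of Mmp14, a membrane-bound protease (0.14 ± 0.07).

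Regulators that act upstream of CC chemokines were also measured. The 25 genes listed for the NF-kB, interferon and AP-1 routes hold activators and also the NF-kB inhibitors Nfkbia, Nfkbib, Nfkbie and Tnfaip3. Their directions are thus not those of inducers alone. Of the 25, 19 were lower and 6 higher with 2'-FL, where 51.6% of all genes were lower. None passed, and the median was -0.06. At an unadjusted edgeR p under 0.05 there were 2, both lower. Over all genes 4.54% were lower at that p, and 7.9% lay past it in either direction. The 2 listed genes at that p were Irf7 (mean 377 CPM, -0.26 ± 0.07, edgeR adjusted p = 0.314) and Irf1 (-0.18 ± 0.08, adjusted p = 0.590), both interferon regulatory factors. Stat2, a carrier of type I interferon signals, averaged 236 CPM. Irf7 passed in 1 alternative, the fit without the filter on low counts (adjusted p = 0.0478). Of 10 regulators of mRNA decay, 8 were lower and 2 higher, with a median of -0.06 and none at an unadjusted p under 0.05; Khsrp averaged 260 CPM and Hnrnpd 238 CPM, and the smallest p were those of Zfp36l1 (-0.16 ± 0.08) and Tia1 (-0.15 ± 0.08). Of 19 receptors and adaptors for inducing cytokines, 15 were lower and 4 higher, none passed and the median was -0.06. At an unadjusted edgeR p under 0.05 there was 1, lower, where 4.54% of all genes were lower at that p. The signal-transducing chain Il6st averaged 364 CPM and the interferon-gamma receptor chain Ifngr2 averaged 226 CPM (0.13 ± 0.07), and Il1rap, a co-receptor for interleukin-1, had -0.20 ± 0.08 (adjusted p = 0.590).

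Markers of other cells were set beside the chemokine values. Fewer cells of a type and less RNA per cell cannot be told apart in such bulk libraries. Summed macrophage markers ran from 32.4 to 39.6 CPM in controls and from 35.5 to 39.8 CPM with 2'-FL, mostly Cd68 and Cd14. Summed dendritic cell markers ran from 16.8 to 18.4 CPM in controls and from 18.4 to 19.0 CPM with 2'-FL, mostly Zbtb46, T and NK cell markers from 0.808 to 1.14 CPM and from 0.404 to 1.07 CPM, B cell markers from 0.657 to 0.797 CPM and from 0.202 to 1.15 CPM, and endothelial markers from 13.3 to 19.9 CPM and from 15.5 to 19.0 CPM. Summed epithelial markers overlapped, from 846 to 979 CPM in controls and from 945 to 1195 CPM with 2'-FL, mostly Krt19, Krt8 and Krt18. Of 4 tested 3 were higher and 1, Cdh1, was lower (log2 fold change -0.81 ± 0.46). Krt19 and Krt8 were higher at an unadjusted edgeR p under 0.05. Summed fibroblast markers did not overlap, from 6681 to 6956 CPM in controls and from 7146 to 8317 CPM with 2'-FL, mostly Col1a1 and Col3a1. Of 9 tested 5 were higher and 4 lower, with a median log2 fold change of 0.025, and Col3a1 and Thy1 were higher at that p. Summed smooth muscle markers did not overlap either, from 146 to 210 CPM in controls and from 233 to 488 CPM with 2'-FL, mostly Acta2. Taken singly, 6.74% of all genes lay higher with 2'-FL without overlap. Of 8 smooth muscle markers 6 were tested, all 6 higher and 4 of them at an unadjusted edgeR p under 0.05. None of these markers passed an adjusted p of 0.05 by edgeR with all libraries, and over all genes 48.4% were higher and 3.36% higher at that p. Acta2, smooth muscle actin, stood at 168 ± 31.1 CPM in controls and 339 ± 124 CPM with 2'-FL (SD, n = 3 each; log2 fold change 1.01 ± 0.20, edgeR adjusted p = 0.197), and Myl9, a myosin light chain, had 0.76 ± 0.17 (adjusted p = 0.203). Acta2 passed in 2 alternatives, without the filter on low counts and with 2'-FL replicate 1 left out (1.27, adjusted p = 0.000363), and Myl9 passed in 3, without the filter, with DESeq2 and with control replicate 2 left out (0.97, adjusted p = 0.0368). The part of any of these marker lists in the lower Ccl2, Ccl7 and Ccl5 values was not tested.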

How the data were processed

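The 6 deposited files hold raw read counts per gene, whole numbers without normalization, as the authors' counting gave them, with gene lengths and coordinates; the RNA was total RNA from a Qiagen RNeasy kit and the library kit was NEBNext Ultra II RNA, per the labels' protocols. Bowtie2, bcl2fastq, FastQC 0.11.9 and the build GRCh38 are listed in the submitters' processing notes, but the files hold mouse genes, and all 9 members have the same start, end and exon bases as in the GENCODE annotation of GRCm38, so coordinates are given on GRCm38. No source used here names the counting program or its strand setting. The members and the gene lists were chosen with earlier results of these data known.

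The analysis used edgeR 4.0.16 under R 4.3.3: filterByExpr by group (minimum count 10, 14129 genes left), TMM scaling, and the quasi-likelihood F-test as 2'-FL minus control, Benjamini-Hochberg adjusted over all genes tested at 0.05. SEs were derived from each fold change and F statistic. CPM are TMM-scaled, and CPM per kilobase uses the exon bases in the files. Named genes are the 9 members, other CC ligands of at least 1 CPM, the 2 most abundant and the 2 smallest-p tested genes of the other chemokine-related lists, and the 3 genes of nearest library pattern for members of at least 10 CPM, among genes with an SD of at least the member's divided by 1.5. Cell type markers are given as summed levels with their most abundant or defining genes. Other counts of 5 or fewer, the other ligands and receptors were named after their values were seen. A count of 0 was read as allowing 3 counts, which covers counting error only. The 129715355 counts of the 6 libraries together set a floor of 0.0231 CPM. Promoter windows are from RefSeq (GRCm38.p6), with 5 of the 9 members matched, and motif letters were searched by a script in all windows. No 2 libraries were alike within sampling noise. The test was checked on simulated data. Alternatives were other scalings, a replicate block, no filter or a filter of 1 CPM in 3 libraries, robust estimation, limma-voom (limma 3.58.1), DESeq2 1.42.0, each library left out, and, added after seeing the data, both libraries that stood apart left out.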

Additional observations from a re-analysis of the deposited data

How the results depend on the processing

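The directions of Ccl2, Ccl7, Ccl5 and Ccl20 were the same under all 16 alternatives; those of Ccl25 (0.025) and Ccl9 (0.052) turned without control replicate 1, and that of Ccl25 (0.114) without the libraries 2'-FL 2 and control 1. With edgeR, genes called numbered 0 with all libraries, 158 without the filter, where edgeR's prior degrees of freedom were infinite, 5 with robust estimation, and 0 to 28 leaving out 1 library each (21 without 2'-FL replicate 1, 28 without control replicate 2). DESeq2 called 37. Without the filter, Ccl2 (-0.31), Ccl7 (-0.448) and Ccl5 (-0.673) passed, with DESeq2 Ccl7 (-0.453) and Ccl5 (-0.677), without 2'-FL replicate 1 Ccl7 (-0.575) and Ccl5 (-0.742), and without control replicate 2 Ccl5 (-0.802). Leaving out 1 library each, log2 fold changes ran from -0.419 to -0.223 for Ccl2, -0.575 to -0.365 for Ccl7, -0.802 to -0.549 for Ccl5, 0.197 to 0.489 for Ccl20, -0.201 to 0.025 for Ccl25 and -0.21 to 0.052 for Ccl9. The replicate numbers did not pair the libraries: deviations of same-numbered libraries correlated at -0.117, -0.068 and -0.051, and not every library correlated best with its own number. With the replicate block, edgeR called 1 gene, Ccl5 (-0.674, adjusted p = 0.0393). Shares without division by length were 53.6% for Ccl2, 20.8% for Ccl7, 0.397% for Ccl9, 0.101% for Ccl17 and 2.18% for Ccl25. Of the fold changes of other named genes under alternatives, 429 kept their direction and their side of the threshold and 19 newly passed; another 198 values are mean levels, which moved by less than 1 SD. The causes of these changes were not tested. Depth limits Ccl8, Ccl11 and Ccl17, which had too few counts to be tested.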
